A study of Mus musculus with 15 samples.

Results

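The 37 genes described here encode the core machinery that builds autophagosomes and the receptors that carry cargo to it, and they were taken from the deposited table by symbol. All 37 listed symbols were among the 11201 genes of the table, and all 37 passed the filter on low values (a normalized read count of at least 10 in at least 3 libraries), as did 11138 genes in all. By role they were 5 genes of the ULK1 initiation complex, 6 of the class III phosphatidylinositol 3-kinase complexes, 5 of lipid supply and phosphoinositide reading, 11 of the ATG8 conjugation systems, 5 of the ATG8 family itself and 5 cargo receptors. The libraries came from ESdM, microglia derived in culture from C57BL/6-ATCC mouse embryonic stem cells and grown in N2 medium. RNA was sequenced after 24 h of stimulation with LPS+IFNg (lipopolysaccharide at 500 ng/ml together with interferon gamma at 20 ng/ml), with IL4 (interleukin 4 at 100 U/ml) or with TGFb (transforming growth factor beta at 50 ng/ml), 3 libraries each, and from 6 libraries of untreated cells. All 4 groups shared the stem cell source and the medium. The labels do not state whether replicates were separate cultures, and p-values therefore measure a spread among libraries that could be technical. The 3 stimuli were each compared with the same 6 untreated libraries, so their differences are given side by side and are not independent of each other.

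Macroautophagy encloses cytoplasm in a double membrane and delivers it to lysosomes. The ULK1 kinase complex starts the process, a class III phosphatidylinositol 3-kinase marks the membrane with its lipid product, ATG9A vesicles and ATG2 proteins supply lipid, and a pair of ubiquitin-like conjugation systems couples ATG8 proteins (the LC3 and GABARAP families) to the growing membrane. Selective autophagy adds receptors such as p62, the product of Sqstm1, which bind ubiquitin-tagged cargo and ATG8 at the same time. In microglia and macrophages the pathway is known for the removal of bacteria, damaged mitochondria and protein aggregates. Transcript levels do not measure autophagic flux, which was not assayed here.

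The reads recovered from the normalized values summed to 2682564 to 18676180 per library, with a median of 7589049. LPS+IFNg replicate 3 stood apart from its group. Compared with replicates 1 and 2, its reads gave a chi-square of 26.0 and 26.6 for each degree of freedom, while the other pair of that group gave 2.88 and pairs within the other groups 1.42 to 7.57. Differences called with LPS+IFNg are therefore given with their value when it is left out. Of 13 marker genes of microglia and macrophages, 12 were in the table. Their summed normalized read count ranged from 20114 to 22694 in LPS+IFNg libraries, 24417 to 24911 in IL4 libraries, 28299 to 29962 in TGFb libraries and 21687 to 23156 in untreated libraries. Csf1r, Cd68, Trem2 and Tyrobp averaged between 1039.5 and 9095 in every group, whereas the homeostatic marker Tmem119 averaged 1.86 with LPS+IFNg, 2.03 with IL4, 82.3 with TGFb and 7.62 in untreated cells, and Cx3cr1 averaged 3.30, 1.49, 39.5 and 2.60 in the same groups. Aif1 averaged 219 with LPS+IFNg, 46.2 with IL4, 24.9 with TGFb and 24.8 in untreated cells. Fcgr1 averaged 307, 116, 124 and 116 in the same groups. Among the LPS+IFNg libraries, Csf1r ranged from 1581 to 3155. P2ry12 was not analysed here. Of the markers of other cell types, none of the lists for neurons, pluripotent stem cells and fibroblasts had a gene in the table used here. The 2 astrocyte markers present, Slc1a2 and Aldh1l1, summed to 100.0 to 111 with LPS+IFNg, 72.7 to 109 with IL4, 65.7 to 85.4 with TGFb and 39.6 to 80.9 in untreated cells. The 3 oligodendrocyte markers present summed to 182 to 201 with LPS+IFNg, 190 to 206 with IL4, 204 to 224 with TGFb and 166 to 239 in untreated cells. The part of any of these markers in the results was not tested. In such bulk libraries, fewer cells carrying a transcript and less of it per cell cannot be told apart.

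Sequences around the start sites of the receptor genes with the largest increases, Sqstm1 and Optn, are printed because these genes moved furthest among the cargo receptors. Each run is 300 bases, 250 before and 50 after the start site of the RefSeq promoter table (GRCm38.p6), read 5′ to 3′ on the minus strand, which is that of both genes, with GC-box letters (GGGCGG on either strand) and TATAAA in capitals. Optn was added after its values were seen.
Sqstm1, chr11:50210771-50211070: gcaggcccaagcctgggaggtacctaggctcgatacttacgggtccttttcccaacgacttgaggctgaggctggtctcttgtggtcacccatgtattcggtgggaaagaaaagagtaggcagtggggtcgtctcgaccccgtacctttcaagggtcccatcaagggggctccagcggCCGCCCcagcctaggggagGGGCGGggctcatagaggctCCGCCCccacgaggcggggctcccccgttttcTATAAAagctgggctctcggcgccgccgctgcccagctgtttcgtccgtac
Optn, chr2:5064068-5064367: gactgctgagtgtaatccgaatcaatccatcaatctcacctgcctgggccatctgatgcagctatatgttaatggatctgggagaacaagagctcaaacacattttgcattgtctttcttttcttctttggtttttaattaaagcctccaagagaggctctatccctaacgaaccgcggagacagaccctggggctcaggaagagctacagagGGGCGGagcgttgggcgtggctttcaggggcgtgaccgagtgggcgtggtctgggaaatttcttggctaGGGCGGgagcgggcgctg
Sqstm1 held 3 GC-box matches, beginning at -72, -53 and -33 relative to the start site, and 1 TATAAA beginning at -1. In Optn the pair of GC-box matches began at -37 and 32. Neither window held the E-box letters CACGTG, the antioxidant-element letters TGACNNNGC or the interferon-gamma-element letters TTCNNNGAA on either strand. Across the set, 31 of the 37 genes matched the table, with 35 start sites, because a gene can have several. GC-box letters were in 22 of these 35 windows (62.9%), against 35.7% of all 32851 windows of the table. E-box letters were in 4 of 35 (11.4%), against 7.15% of all windows, and belonged to Atg14, Atg3, Atg5 and Atg7. The longer CLEAR element of lysosomal genes, whose letters contain the E-box, was in 0 of 35, against 0.326% of all windows. Antioxidant-element letters were in 11.4% of member windows and 12.4% of all, interferon-gamma-element letters in 11.4% and 8.30%, and TATAAA in 5.71% and 13.6%. A match is a description of these letters and not a mapped binding site.

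Levels in untreated cells spanned a wide range. Divided by the length of the longest annotated transcript (GENCODE M21, GRCm38), the normalized read count per kilobase was highest for Sqstm1, at 1578 ± 45 (SD, n = 6 untreated libraries), and for the ATG8 gene Gabarap, at 1398 ± 118. The ranges of these genes over the libraries overlapped, but within every untreated library Sqstm1 was the higher. Atg13, a scaffold subunit of the ULK1 complex, followed at 893 ± 31.1 per kilobase, then the receptor Tax1bp1 at 560.0 ± 26.6, Gabarapl1 at 450.5 ± 18.8 and Map1lc3a at 387 ± 27.7. The lowest levels per kilobase were those of Ulk2 (22.3 ± 2.49), Atg16l2 (14.5 ± 1.36) and Wipi1 (2.82 ± 1.05). In 26 of the 36 pairs of neighbours the ranges over the untreated libraries overlapped, so ranges alone do not settle their order. Both genes of a pair were measured in the same libraries, and other pairs were not compared library by library. With the length of all annotated exons joined, 9 of the 10 highest genes were the same and the largest change of rank was 8 places. Exons of 13 of the 37 genes overlapped another annotated gene, among them Sqstm1 (with Mrnip), Optn, Tax1bp1, Map1lc3b, Gabarapl1, Becn1 and Atg16l2, on the opposite strand. Since the use of strand in counting was not given in the sources used here, reads from such partners cannot be told apart.

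All 5 cargo receptor genes were higher with LPS+IFNg than in untreated cells, Sqstm1 and Optn by the widest margin, while the LC3 genes Map1lc3a and Map1lc3b were lower. With TGFb, 4 of 5 ATG8 genes and 3 of 5 receptors were higher. Few of the genes changed with IL4, and Sqstm1 was among them, lower. Counted over all 37 genes, 14 were higher and 6 lower with LPS+IFNg than in untreated cells (limma, Benjamini-Hochberg adjusted p below 0.05), which is 54.1% of them, beside 58.9% of all genes tested in that comparison (29.5% higher and 29.4% lower). With IL4, 6 were higher and 1 lower (18.9%, beside 17.2% of all genes, 9.89% higher and 7.33% lower), and with TGFb 17 were higher and 4 lower (56.8%, beside 47.5% of all genes, 24.1% higher and 23.4% lower). The shares called in either direction lie within 10 percentage points of those of all genes, and by direction the widest gap was that of genes higher with TGFb, at 45.9% of the 37. The median difference of the 37 genes on the log2(value + 1) scale was 0.11 with LPS+IFNg, 0.10 with IL4 and 0.16 with TGFb, where the median of all genes tested was 0.00 with LPS+IFNg, 0.00 with IL4 and 0.01 with TGFb. Differences of at least 0.58 on that scale that also passed the test numbered 6 with LPS+IFNg (Ulk2, Atg10, Atg12, Map1lc3a, Sqstm1 and Optn), 0 with IL4 and 3 with TGFb (Wipi1, Map1lc3a and Optn), beside 24.6%, 3.23% and 14.9% of all genes. Sqstm1 and Map1lc3b were called with all 3 stimuli, 15 genes with 2 stimuli, 12 with 1 and 8 with none. The same count was not made over all genes, so it does not set these 37 apart.

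**Figure D1:**
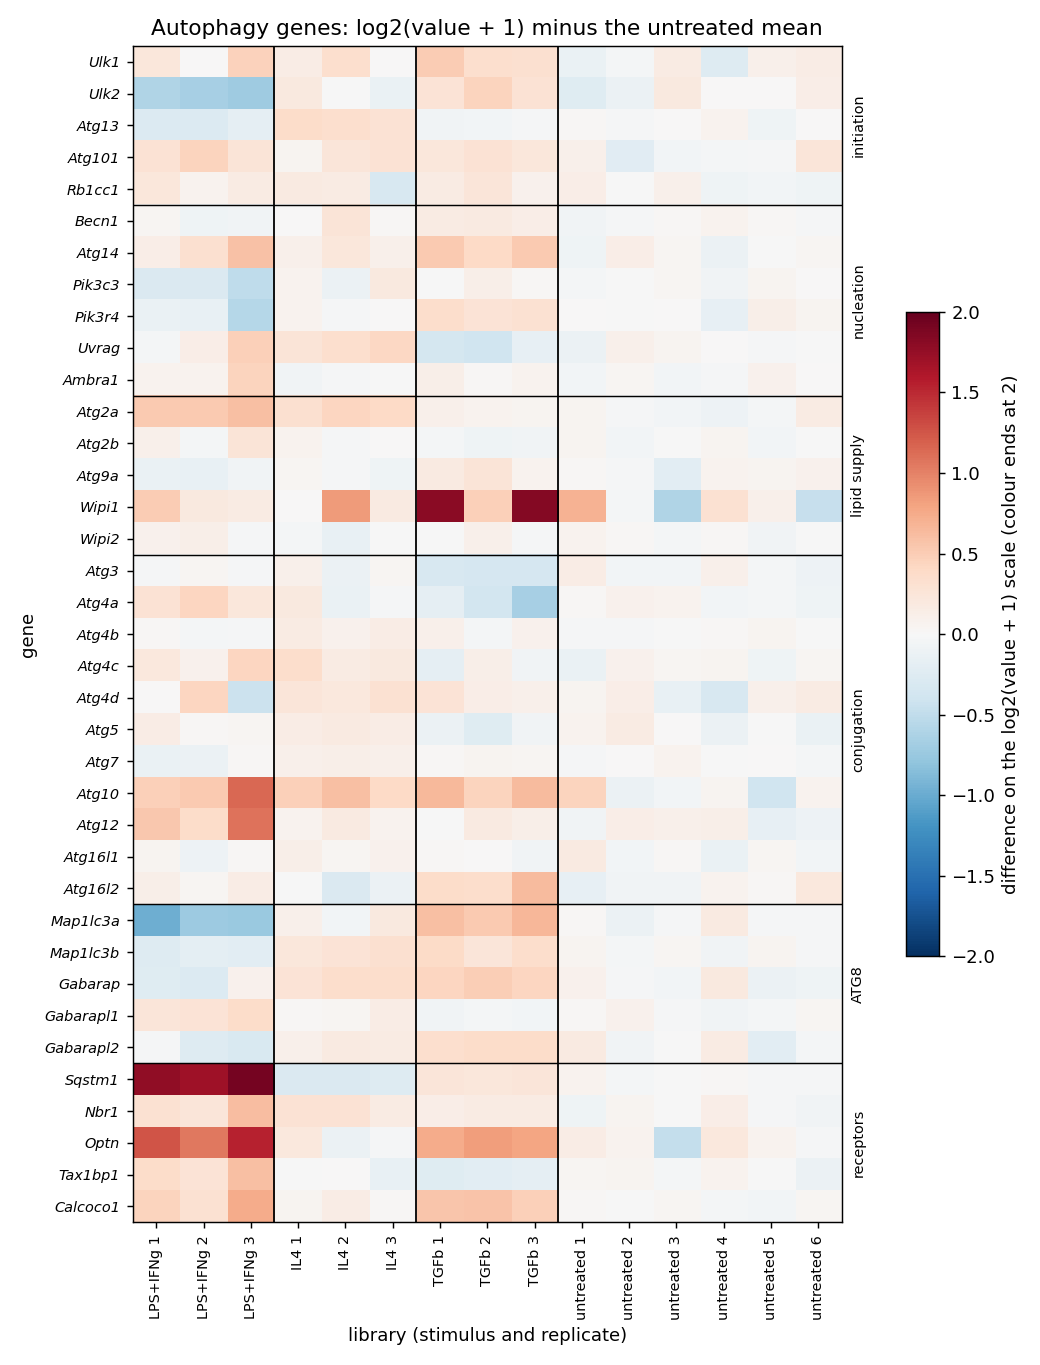
Heat map of the 37 genes (rows, by role) in the 15 libraries (columns, by stimulus), coloured by log2(normalized read count + 1) minus the mean of the 6 untreated libraries. Sqstm1 and Optn are the darkest rows in the 3 LPS+IFNg libraries, Map1lc3a and Ulk2 are blue there, and Wipi1 is dark in TGFb replicates 1 and 3.

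The scaling of the libraries bears on these counts. When each library was rescaled to the same total, the median of all genes shifted by -0.12 on the log2 scale with LPS+IFNg, by -0.06 with IL4 and by -0.06 with TGFb, and of all calls 35.5% with LPS+IFNg, 33.9% with IL4 and 37.8% with TGFb were higher. In the values as deposited these shares were 50%, 57.4% and 50.8% for the same stimuli. Quantile normalization gave 38.8%, 47.4% and 45.1% for these stimuli. Among the 37 genes, rescaling left 10 higher and 11 lower with LPS+IFNg, 6 higher and 1 lower with IL4, and 12 higher and 8 lower with TGFb. Of all genes, 61.4% with LPS+IFNg, 19.7% with IL4 and 48.2% with TGFb were called after it. The calls gained by this rescaling were all of lower values, of Atg7, Atg9a, Becn1, Gabarap and Gabarapl2 with LPS+IFNg and of Atg13, Atg2b, Atg5 and Gabarapl1 with TGFb. Those it removed were of higher values, of Ambra1, Atg101, Atg4a and Atg4c with LPS+IFNg and of Atg101, Atg9a, Becn1, Pik3r4 and Ulk2 with TGFb. Without LPS+IFNg replicate 3, 12 genes were higher and 7 lower with that stimulus. In that fit 55% of all genes were called, a share that applies to each later count against untreated cells without this replicate. A total of 15 of the 20 calls with LPS+IFNg, 5 of 7 with IL4 and 12 of 21 with TGFb held under every alternative in which the gene was tested, 18 for each call and 17 for that of Wipi1 with TGFb, since Wipi1 did not reach the minimum value of 50.

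All 5 cargo receptor genes were higher with LPS+IFNg than in untreated cells, and the 5 calls held under both other scalings and without LPS+IFNg replicate 3. With IL4, Nbr1 was higher and Sqstm1 lower, and with TGFb 3 were higher (Sqstm1, Optn, Calcoco1) and Tax1bp1 was lower. Called receptors thus made up 100% with LPS+IFNg, 40% with IL4 and 80% with TGFb, beside 58.9%, 17.2% and 47.5% of all genes. The median log2 difference of the 5 genes was 0.50 with LPS+IFNg, 0.03 with IL4 and 0.24 with TGFb. Their proteins link ubiquitin-tagged or other cargo to ATG8 on the autophagosome membrane.

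Sqstm1 (chromosome 11, 50199366 to 50210827, minus strand; ENSMUSG00000015837.15) encodes p62, which forms condensates with ubiquitin-tagged proteins and also binds KEAP1. Its normalized read counts were 14374, 13707 and 15912 in the LPS+IFNg libraries, 3441, 3463 and 3528 in the IL4 libraries, 4990, 4943 and 4994 in the TGFb libraries, and 4112 (lowest), 4169 (median) and 4442 (highest) in the 6 untreated libraries. All LPS+IFNg and all TGFb libraries lay above every untreated library, and all IL4 libraries lay below. The mean was 14664 ± 1131 with LPS+IFNg and 4219 ± 120 in untreated cells (SD, n = 3 and 6), a ratio of 3.48 and a log2 difference of 1.79 (SE 0.045, limma adjusted p = 1.67e-16), or 1.73 without LPS+IFNg replicate 3. With IL4 the log2 difference was -0.28 (SE 0.045, limma adjusted p = 0.000245) and with TGFb 0.24 (SE 0.045, limma adjusted p = 0.000252). Sqstm1 thus changed in opposite directions with IL4 and with the other stimuli, and the difference between LPS+IFNg and IL4 was 4.22-fold (log2 difference 2.07, SE 0.052, limma adjusted p = 2.11e-16; 2.01 without replicate 3).

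Optn (chromosome 2, 5020642 to 5064051, minus strand) encodes optineurin, a receptor for mitochondria and bacteria that the kinase TBK1 phosphorylates. It held 279, 242 and 338 normalized read counts in the LPS+IFNg libraries, 135, 107 and 114 in the IL4 libraries, 194, 207 and 201 in the TGFb libraries, and 82.8, 122 and 134 (lowest, median and highest) in untreated libraries. The LPS+IFNg and TGFb libraries lay above all untreated libraries, and the IL4 libraries overlapped them. On the log2 scale, Optn differed from untreated cells by 1.28 with LPS+IFNg (SE 0.136, limma adjusted p = 1.81e-07; 1.16 without replicate 3) and 0.79 with TGFb (SE 0.136, limma adjusted p = 0.000108). With IL4 it was 0.03 and did not pass the test (limma adjusted p = 0.929).

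Calcoco1 (chromosome 15, 102706777 to 102722178, minus strand), known as a receptor for the endoplasmic reticulum and Golgi, held 766, 699 and 948 in the LPS+IFNg libraries, 585, 624 and 573 in the IL4 libraries, 828, 841 and 789 in the TGFb libraries, and 545, 569 and 577 (lowest, median and highest) in untreated libraries. Both the LPS+IFNg and the TGFb libraries stood clear of the untreated ones, while IL4 overlapped them. Calcoco1 differed from untreated cells by 0.50 on the log2 scale with LPS+IFNg (SE 0.071, limma adjusted p = 6.65e-06; 0.38 without replicate 3) and 0.54 with TGFb (SE 0.071, limma adjusted p = 4.81e-06).

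Tax1bp1 (chromosome 6, 52713729 to 52766780, plus strand), a receptor that also limits NF-kB signalling together with A20, held 3050, 2876 and 3607 in the LPS+IFNg libraries, 2365, 2390 and 2150 in the IL4 libraries, 2010, 2062 and 2107 in the TGFb libraries, and 2198, 2397 and 2505 (lowest, median and highest) in untreated libraries. It was above the untreated range in every LPS+IFNg library and below it in every TGFb library. In the limma fit, Tax1bp1 differed by 0.41 on the log2 scale with LPS+IFNg (SE 0.062, limma adjusted p = 1.31e-05; 0.32 without replicate 3) and -0.21 with TGFb (SE 0.062, limma adjusted p = 0.00968). The TGFb call was lost without the 3 libraries of fewest reads (-0.18, limma adjusted p = 0.0981).

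Nbr1 (chromosome 11, 101552149 to 101581951, plus strand), a receptor that works with p62, held 1369, 1313 and 1697 in the LPS+IFNg libraries, 1349, 1352 and 1243 in the IL4 libraries, 1212, 1240 and 1235 in the TGFb libraries, and 1045, 1093 and 1205 (lowest, median and highest) in untreated libraries. No stimulated library fell within the untreated range. Nbr1 differed by 0.39 on the log2 scale with LPS+IFNg (SE 0.067, limma adjusted p = 6.16e-05; 0.28 without replicate 3), 0.25 with IL4 (SE 0.067, limma adjusted p = 0.0140) and 0.15 with TGFb, which did not pass (SE 0.067, limma adjusted p = 0.0683). The IL4 call was lost without IL4 replicate 1 (limma adjusted p = 0.0642) and without IL4 replicate 2 (0.0822), and the TGFb difference passed without untreated replicate 4 (0.0366), under quantile normalization (0.0259) and when TGFb and untreated libraries were fitted alone (0.0123).

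**Figure D2:**
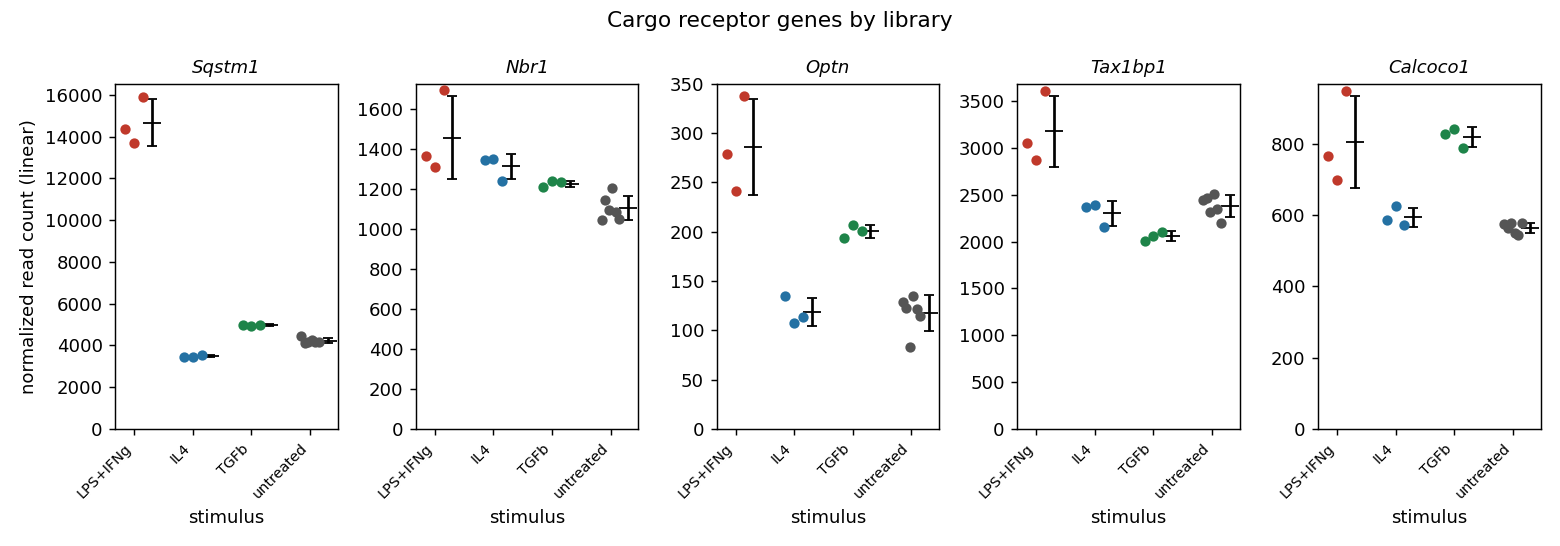
Normalized read counts (linear axes from 0) of the 5 cargo receptor genes in each library, with points for libraries and bars for the mean ± SD of each group, from LPS+IFNg at the left to untreated at the right. The LPS+IFNg points of every gene lie above the untreated points, with LPS+IFNg replicate 3 the highest.

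The ATG8 genes encode the ubiquitin-like proteins that coat the autophagosome membrane. With LPS+IFNg, Map1lc3a and Map1lc3b were lower and Gabarapl1 was higher than in untreated cells. With TGFb, 4 of 5 were higher and 0 lower (under the same-total scaling Gabarapl1 was lower, -0.13, limma adjusted p = 0.0282), and with IL4 2 of 5 were higher. Called ATG8 genes made up 60% with LPS+IFNg, 40% with IL4 and 80% with TGFb, beside 58.9%, 17.2% and 47.5% of all genes. Set directly against each other, LPS+IFNg was lower than TGFb for Map1lc3a, Map1lc3b, Gabarap and Gabarapl2 and higher for Gabarapl1, so that all 5 passed the test. Of all genes, 62.6% were called in that comparison. Without LPS+IFNg replicate 3 these 5 differences also passed, the lower ones at -1.45 to -0.49 and Gabarapl1 at 0.31. The median log2 difference of the 5 genes from untreated cells was -0.19 with LPS+IFNg, 0.15 with IL4 and 0.35 with TGFb.

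Map1lc3a (chromosome 2, 155276297 to 155278073, plus strand), which encodes LC3A, held 219, 260.5 and 257 in the LPS+IFNg libraries, 463, 415 and 493 in the IL4 libraries, 655, 619 and 683 in the TGFb libraries, and 396, 422 and 488 (lowest, median and highest) in untreated libraries. Every LPS+IFNg library lay below and every TGFb library above the untreated range, which IL4 overlapped. On the log2 scale, Map1lc3a differed from untreated cells by -0.81 with LPS+IFNg (SE 0.076, limma adjusted p = 3.43e-08; -0.85 without replicate 3) and 0.60 with TGFb (SE 0.076, limma adjusted p = 3.25e-06), against 0.09 with IL4 (limma adjusted p = 0.507). Between LPS+IFNg and TGFb the log2 difference was -1.41 (SE 0.088, limma adjusted p = 8.21e-11; -1.45 without replicate 3).

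Map1lc3b (chromosome 8, 121590361 to 121598760, plus strand), which encodes the commonly assayed LC3B, held 721, 754 and 745 in the LPS+IFNg libraries, 1018, 1048 and 1079 in the IL4 libraries, 1129.7, 1022 and 1106 in the TGFb libraries, and 821, 869 and 898 (lowest, median and highest) in untreated libraries. The LPS+IFNg libraries were all below the untreated ones and those of IL4 and TGFb all above. Map1lc3b differed by -0.23 on the log2 scale with LPS+IFNg (SE 0.048, limma adjusted p = 0.000504; -0.23 without replicate 3), 0.28 with IL4 (SE 0.048, limma adjusted p = 0.000468) and 0.33 with TGFb (SE 0.048, limma adjusted p = 1.75e-05).

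Gabarap (chromosome 11, 69991143 to 69994951, plus strand) held 1597, 1557 and 1996 in the LPS+IFNg libraries, 2275, 2403 and 2413 in the IL4 libraries, 2536, 2664 and 2534 in the TGFb libraries, and 1745, 1830.1 and 2152 (lowest, median and highest) in untreated libraries. IL4 and TGFb libraries lay above all untreated ones, and with LPS+IFNg replicates 1 and 2 lay below them and replicate 3 among them. In the limma fit, Gabarap differed by 0.33 on the log2 scale with IL4 (SE 0.073, limma adjusted p = 0.00408) and 0.45 with TGFb (SE 0.073, limma adjusted p = 5.41e-05). With LPS+IFNg it was -0.14 and did not pass (limma adjusted p = 0.102), but it was -0.26 without replicate 3 (limma adjusted p = 0.000981), and it also passed under the same-total scaling (-0.27, limma adjusted p = 0.000806) and quantile normalization (-0.24, limma adjusted p = 0.00249).

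Gabarapl2 (chromosome 8, 111940703 to 111953612, plus strand) held 231, 196 and 189 in the LPS+IFNg libraries, 250.4, 265 and 261 in the IL4 libraries, 294, 301 and 301 in the TGFb libraries, and 203, 229.5 and 264 (lowest, median and highest) in untreated libraries. Only the TGFb libraries stood outside the untreated range in all 3 replicates, and they were above it. The log2 difference was 0.35 with TGFb (SE 0.088, limma adjusted p = 0.00291), and it was -0.19 with LPS+IFNg (limma adjusted p = 0.0678) and 0.15 with IL4 (limma adjusted p = 0.290), neither of which passed. The LPS+IFNg difference passed without LPS+IFNg replicate 1 (-0.28, limma adjusted p = 0.0188) and without untreated replicate 5 (-0.23, 0.0259), and under the same-total scaling (-0.32, 0.00591) and quantile normalization (-0.27, 0.0144).

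Gabarapl1 (chromosome 6, 129533160 to 129542346, plus strand) went the other way. It held 965, 988 and 1060.2 in the LPS+IFNg libraries, 834, 841 and 908 in the IL4 libraries, 782, 794 and 785 in the TGFb libraries, and 776, 819 and 872 (lowest, median and highest) in untreated libraries. The LPS+IFNg libraries lay above all untreated ones, and the other stimuli overlapped them. The log2 difference was 0.29 with LPS+IFNg (SE 0.050, limma adjusted p = 5.48e-05; 0.25 without replicate 3), where IL4 gave 0.07 (limma adjusted p = 0.382) and TGFb -0.06 (limma adjusted p = 0.357).

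**Figure D3:**
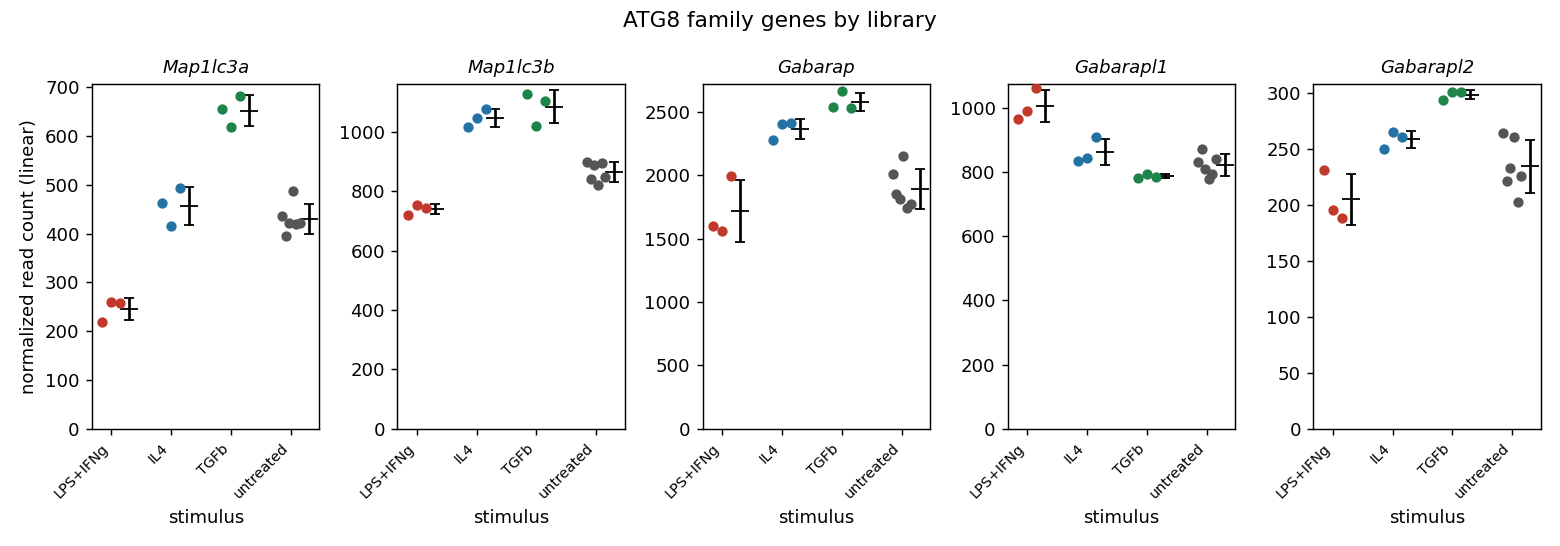
Normalized read counts (linear axes from 0) of the 5 ATG8 genes in each library, with points for libraries and bars for the mean ± SD of each group. Map1lc3a shows the LPS+IFNg libraries at 219 to 260.5, below all others, and the TGFb libraries at 619 to 683, above all others, whereas Gabarapl1 is highest with LPS+IFNg.

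In the initiation complex, Ulk2 and Atg13 were lower and Atg101 was higher with LPS+IFNg, Atg13 was higher with IL4, and Ulk1, Ulk2 and Atg101 were higher with TGFb. Ulk2 (chromosome 11, 61775649 to 61855073, minus strand), a kinase related to Ulk1, held 83.7, 80.0 and 77.9 in the LPS+IFNg libraries, 146, 127 and 117 in the IL4 libraries, 154, 175 and 156 in the TGFb libraries, and 108, 129 and 147 (lowest, median and highest) in untreated libraries. LPS+IFNg libraries lay below and TGFb libraries above the untreated range, and IL4 overlapped it. The log2 difference of Ulk2 was -0.66 with LPS+IFNg (SE 0.109, limma adjusted p = 4.38e-05; -0.64 without replicate 3) and 0.34 with TGFb (SE 0.109, limma adjusted p = 0.0167). The TGFb call for Ulk2 was lost without TGFb replicate 2 (0.28, limma adjusted p = 0.0899), under the same-total scaling (0.26, 0.0678) and without the 3 libraries of fewest reads (0.22, 0.169).

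Ulk1, the kinase that starts autophagosome formation, averaged 283 ± 44.4 with LPS+IFNg, 269 ± 29.8 with IL4, 313 ± 24.2 with TGFb and 240.5 ± 28.2 in untreated cells. It passed the test with TGFb (log2 difference 0.39, SE 0.110, limma adjusted p = 0.00732), though not without TGFb replicate 1 (0.32, 0.0534), and with LPS+IFNg it passed only without LPS+IFNg replicate 2 (0.35, 0.0174). Atg13 averaged 2724 ± 111 with LPS+IFNg, 4039 ± 108 with IL4, 3113 ± 62.5 with TGFb and 3217 ± 112 in untreated cells, and its IL4 and LPS+IFNg libraries did not overlap the untreated ones. The log2 difference of Atg13 was -0.24 with LPS+IFNg (SE 0.042, limma adjusted p = 7.13e-05; -0.27 without replicate 3) and 0.33 with IL4 (SE 0.042, limma adjusted p = 2.03e-05). Atg101, which stabilizes ATG13, differed by 0.33 with LPS+IFNg (limma adjusted p = 0.00406; 0.37 without replicate 3, and 0.21 and 0.0739 under the same-total scaling) and by 0.24 with TGFb (limma adjusted p = 0.0340). That TGFb call was lost without any 1 of the 3 TGFb libraries (limma adjusted p = 0.0707 to 0.110) and without untreated replicate 2, 3, 4 or 5 (0.0501 to 0.0682). Rb1cc1, which encodes the scaffold FIP200, averaged 373 ± 20.9 with LPS+IFNg, 340.2 ± 62.4 with IL4, 375 ± 20.1 with TGFb and 336 ± 22.9 in untreated cells, and it passed with none of the stimuli.

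Of the 6 genes of the lipid kinase complexes, 2 were higher and 2 lower with LPS+IFNg, 1 higher and 0 lower with IL4, and 3 higher and 1 lower with TGFb, which is 66.7%, 16.7% and 66.7% of them, beside 58.9%, 17.2% and 47.5% of all genes. Without LPS+IFNg replicate 3, 1 was higher and 1 lower with that stimulus. Pik3c3, the catalytic subunit, averaged 325 ± 28.4 with LPS+IFNg, 435 ± 45.2 with IL4, 431 ± 21.0 with TGFb and 418 ± 13.8 in untreated cells, and it was lower with LPS+IFNg (log2 difference -0.36, SE 0.071, limma adjusted p = 0.000229; -0.29 without replicate 3), with no overlap of libraries. Pik3r4, its regulatory subunit, was lower with LPS+IFNg (-0.29, limma adjusted p = 0.00670), a call that was lost without LPS+IFNg replicate 3 (-0.14, 0.0832), and higher with TGFb (0.31, limma adjusted p = 0.00486), a call lost under the same-total scaling (0.24, 0.0584). Atg14, which directs the kinase to autophagosome formation sites, averaged 268 ± 42.7 with LPS+IFNg, 231 ± 11.3 with IL4, 292 ± 14.7 with TGFb and 209 ± 13.5 in untreated cells. It was higher with LPS+IFNg (0.34, SE 0.090, limma adjusted p = 0.00285; 0.22 and 0.0348 without replicate 3) and with TGFb (0.48, SE 0.090, limma adjusted p = 0.000228). Uvrag, the subunit of the alternative complex that acts on endosomes, averaged 644 ± 120 with LPS+IFNg, 707 ± 36.1 with IL4, 454 ± 41.2 with TGFb and 559 ± 28.0 in untreated cells. It was higher with IL4 (0.34, limma adjusted p = 0.0103; 0.0616 without IL4 replicate 3) and lower with TGFb (-0.30, limma adjusted p = 0.00754; 0.0538 without TGFb replicate 2), and between IL4 and TGFb it differed by 0.64 (SE 0.100, limma adjusted p = 4.54e-05). With LPS+IFNg, Uvrag passed only without LPS+IFNg replicate 1 (0.30, 0.00623). Becn1, the Beclin 1 scaffold, differed by -0.04 with LPS+IFNg and 0.10 with IL4, which did not pass, and by 0.16 with TGFb (limma adjusted p = 0.0402). The Becn1 call was lost without any 1 of the TGFb libraries (limma adjusted p = 0.0692 to 0.112) and without untreated replicate 1, 2, 3, 5 or 6 (0.0503 to 0.0705). Ambra1, a Beclin 1 regulator, was higher with LPS+IFNg (0.19, limma adjusted p = 0.0190), which did not hold without replicate 3 (0.07, 0.253).

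Among the genes of lipid supply, Atg2a, a lipid transfer protein, was higher with LPS+IFNg and IL4, and Wipi1, a reader of the phosphoinositide mark, was higher with TGFb. Atg2a averaged 1304 ± 43.6 with LPS+IFNg, 1163 ± 45.2 with IL4, 939 ± 17.3 with TGFb and 891 ± 59.4 in untreated cells, and neither the LPS+IFNg nor the IL4 libraries overlapped the untreated ones. The log2 difference of Atg2a was 0.55 with LPS+IFNg (SE 0.054, limma adjusted p = 5.64e-08; 0.52 without replicate 3) and 0.39 with IL4 (SE 0.054, limma adjusted p = 5.22e-05). Wipi1 (chromosome 11, 109573331 to 109611967, minus strand) held 13.2, 10.3 and 10.2 in the LPS+IFNg libraries, 8.96, 16.9 and 10.2 in the IL4 libraries, 33.7, 12.8 and 34.5 in the TGFb libraries, and 5.52, 9.17 and 15.1 (lowest, median and highest) in untreated libraries. TGFb replicates 1 and 3 lay above all untreated libraries and replicate 2 among them, and the library with the fewest reads of this gene held 4. The log2 difference of Wipi1 with TGFb was 1.37 (SE 0.338, limma adjusted p = 0.00262), with 1.82 when TGFb replicate 2 was left out and 1.14 (limma adjusted p = 0.0292) when replicate 3 was. Atg9a, the lipid scramblase of the seed vesicles, differed by 0.17 with TGFb (limma adjusted p = 0.0482), a call that was lost without TGFb replicate 1 (0.126) or 2 (0.225) and without untreated replicate 1, 2 or 3 (0.0581 to 0.0938). Without untreated replicate 3, Atg9a was lower with LPS+IFNg (-0.16, limma adjusted p = 0.0220), which with all libraries did not pass (-0.12, 0.129). Wipi2, which recruits the conjugation machinery, and Atg2b did not pass against untreated cells with any stimulus, but Atg2b was higher with LPS+IFNg without replicate 2 (0.18, limma adjusted p = 0.00880) and lower with TGFb under the same-total scaling (-0.14, 0.0182).

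**Figure D4:**
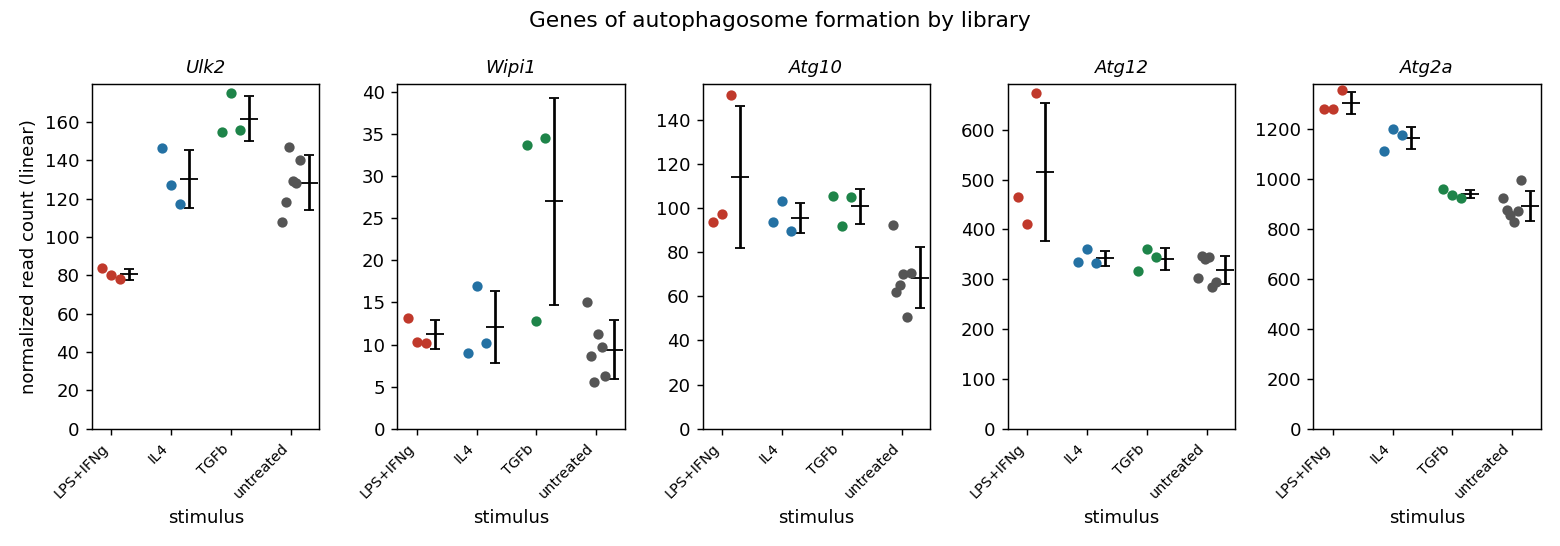
Normalized read counts (linear axes from 0) of Ulk2, Wipi1, Atg10, Atg12 and Atg2a in each library, with points for libraries and bars for the mean ± SD of each group. Ulk2 is lowest with LPS+IFNg, Wipi1 has TGFb libraries at 33.7 and 34.5 and 1 at 12.8, and LPS+IFNg replicate 3 is the highest point of Atg10 and Atg12.

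Of the 11 conjugation genes, 4 were higher with LPS+IFNg and 0 lower, none passed with IL4, and with TGFb Atg10 and Atg16l2 were higher and Atg3 and Atg4a lower, which is 36.4%, 0% and 36.4% of them, beside 58.9%, 17.2% and 47.5% of all genes. Without LPS+IFNg replicate 3, 3 were higher and 1 lower with that stimulus. With IL4, 5 of them had an unadjusted limma p below 0.05, a threshold for which the share of all genes was not counted. When IL4 and untreated libraries were fitted alone, 3 (Atg4c, Atg7 and Atg10) passed, beside 21.7% of all genes in that fit. Under the same-total scaling, 2 were higher and 1 lower with LPS+IFNg, beside 61.4% of all genes called. Atg12 (chromosome 18), the ubiquitin-like protein that is joined to ATG5, held 464, 410.1 and 673 in the LPS+IFNg libraries, 334, 360 and 332 in the IL4 libraries, 317, 361 and 344 in the TGFb libraries, and 284, 321 and 347 (lowest, median and highest) in untreated libraries. Only LPS+IFNg stood above the untreated range in all 3 libraries, replicate 3 most. The log2 difference of Atg12 with LPS+IFNg was 0.66 (SE 0.114, limma adjusted p = 6.35e-05) and 0.46 without replicate 3 (limma adjusted p = 0.000108).

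Atg10 (chromosome 13, 90935356 to 91223968, minus strand), the E2-like enzyme that joins ATG12 to ATG5, held 93.8, 97.1 and 151 in the LPS+IFNg libraries, 93.8, 103 and 89.4 in the IL4 libraries, 106, 91.8 and 105 in the TGFb libraries, and 50.7, 67.6 and 92.4 (lowest, median and highest) in untreated libraries. All LPS+IFNg libraries were above the untreated range, while 1 library each of IL4 and TGFb lay within it, just under its highest value. The log2 difference of Atg10 was 0.72 with LPS+IFNg (SE 0.168, limma adjusted p = 0.00127; 0.50 and 0.0145 without replicate 3) and 0.57 with TGFb (SE 0.168, limma adjusted p = 0.00927). With IL4 it was 0.49 and did not pass (limma adjusted p = 0.0508), and it passed without untreated replicate 1 (0.58, 0.0161), without the 3 libraries of fewest reads (0.62, 0.0202), under quantile normalization (0.0475), with a minimum value of 50 (0.0459) and when IL4 and untreated libraries were fitted alone (0.0479).

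Atg3, the E2-like enzyme that joins ATG8 to lipid, averaged 299 ± 7.40 with LPS+IFNg, 302 ± 22.3 with IL4, 238 ± 1.99 with TGFb and 299.7 ± 20.3 in untreated cells, and it was lower with TGFb (log2 difference -0.33, SE 0.070, limma adjusted p = 0.000818), with no overlap. Atg16l2, a relative of the scaffold gene Atg16l1, averaged 101 ± 3.88 with LPS+IFNg, 85.0 ± 8.26 with IL4, 128 ± 14.1 with TGFb and 93.5 ± 8.77 in untreated cells, and it was higher with TGFb (0.45, SE 0.111, limma adjusted p = 0.00262). Among the ATG8-processing proteases, Atg4a was higher with LPS+IFNg (0.32, limma adjusted p = 0.0190; 0.36 without LPS+IFNg replicate 3, and 0.0954 for the p without replicate 2) and lower with TGFb (-0.40, limma adjusted p = 0.00546; 0.0665 without TGFb replicate 3), a log2 difference of 0.72 between LPS+IFNg and TGFb (SE 0.127, limma adjusted p = 7.31e-05; 0.76 without LPS+IFNg replicate 3). Its relative Atg4c was higher with LPS+IFNg (0.24, limma adjusted p = 0.0234), a call that was lost without replicate 3 (0.15, 0.166). Atg4b and Atg4d, 2 further proteases of this family, did not pass with any stimulus, nor did Atg5, the partner of ATG12, or Atg16l1. Atg5 was lower with TGFb under the same-total scaling alone (-0.22, limma adjusted p = 0.0308). Atg7, the E1-like enzyme of both conjugation systems, averaged 822 ± 49.4 with LPS+IFNg, 933 ± 8.27 with IL4, 889 ± 7.98 with TGFb and 865 ± 21.5 in untreated cells. It did not pass with any stimulus, but with LPS+IFNg it was lower without replicate 3 (-0.12, limma adjusted p = 0.0259).

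**Figure D5:**
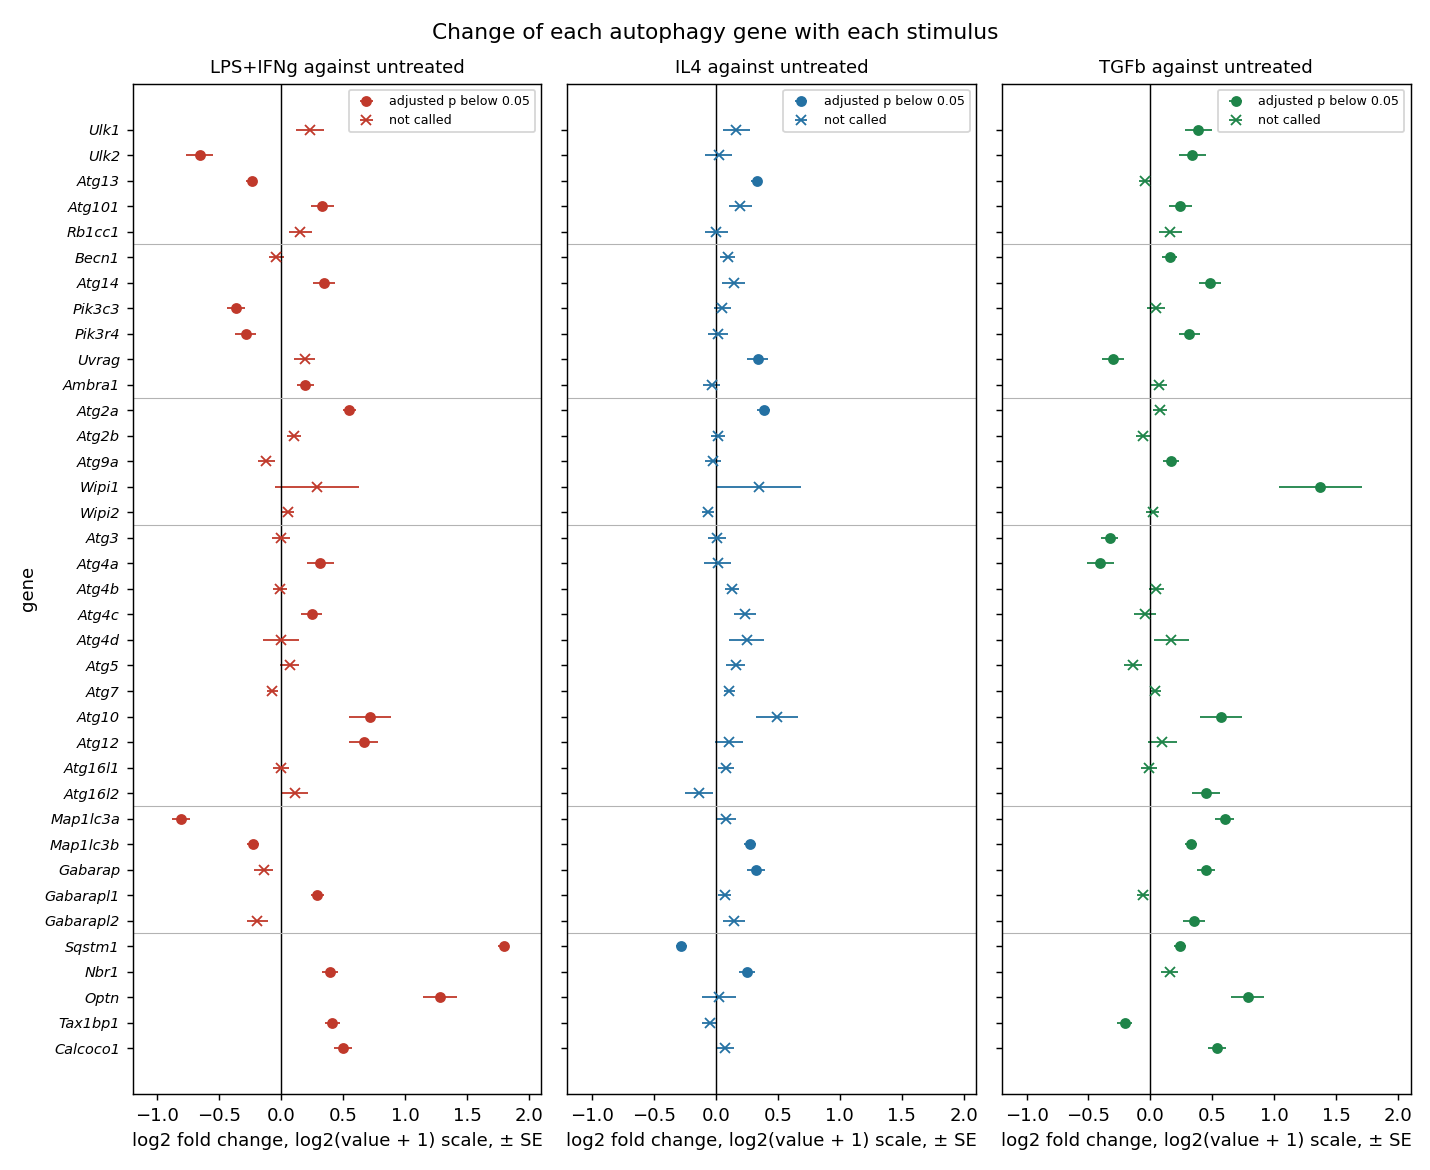
Log2 difference from untreated cells, on the log2(value + 1) scale, of each of the 37 genes with each stimulus, with bars for the SE; filled circles mark an adjusted p below 0.05 and crosses the rest. The 5 receptors at the foot of the LPS+IFNg panel all lie to the right of 0, with Sqstm1 at 1.79, and every difference in the IL4 panel lies between -0.28 and 0.49.

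Between stimuli, 9 of the 37 genes were higher and 9 lower with LPS+IFNg than with IL4, beside 57.7% of all genes called in that comparison (28.8% higher and 28.8% lower). With LPS+IFNg against TGFb 13 were higher and 12 lower, beside 62.6% of all genes (31.9% higher and 30.8% lower). With IL4 against TGFb, 7 were higher and 8 lower, beside 39.7% of all genes (20.7% higher and 19.0% lower). Without LPS+IFNg replicate 3, 8 were higher and 9 lower against IL4 and 9 higher and 14 lower against TGFb. Of all genes, 55% and 60.9% were called in these fits. Calls of at least 0.58 on the log2 scale numbered 4, 8 and 4 of the 37 in these comparisons, beside 27.8%, 33.0% and 14% of all genes. The receptors Sqstm1, Optn and Tax1bp1 were higher with LPS+IFNg than with either other stimulus, and Calcoco1 was higher with LPS+IFNg than with IL4 (0.43, SE 0.081, limma adjusted p = 0.000192; 0.30 without LPS+IFNg replicate 3). The differences of Sqstm1, Optn and Tax1bp1 passed without that replicate too, at 0.37 to 2.01. There, Calcoco1 was lower with LPS+IFNg than with TGFb (-0.16, limma adjusted p = 0.0290), and Nbr1, called higher than with TGFb (0.24, 0.0123), was not (0.13, 0.0750). IL4 was lower than TGFb for Sqstm1 (-0.52, SE 0.052, limma adjusted p = 2.37e-07), Optn (-0.76, SE 0.157, limma adjusted p = 0.000761), Calcoco1 (-0.46, SE 0.081, limma adjusted p = 0.000160) and Map1lc3a (-0.52, SE 0.088, limma adjusted p = 0.000119). Ulk2 was lower with LPS+IFNg than with IL4 (-0.68, SE 0.126, limma adjusted p = 0.000145; -0.66 without LPS+IFNg replicate 3) and than with TGFb (-0.99, SE 0.126, limma adjusted p = 1.59e-06; -0.97 without it). Wipi1 was called lower with LPS+IFNg (-1.08, limma adjusted p = 0.0220) and with IL4 (-1.03, 0.0437) than with TGFb, and both calls were lost without TGFb replicate 1 (0.105 and 0.176) or 3 (0.109 and 0.184). The call against LPS+IFNg was also lost without LPS+IFNg replicate 2 (0.0578) or 3 (0.0516), and that against IL4 without IL4 replicate 1 (0.149) or 3 (0.118).

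Genes that act on or beside this machinery were listed by name and counted in the same fits. Of 12 tested kinases and binding partners of the cargo receptors, 8 were higher and 1 lower with LPS+IFNg, 2 higher and 1 lower with IL4, and 1 higher and 1 lower with TGFb. These are 75%, 25% and 16.7% of the 12, beside 58.9%, 17.2% and 47.5% of all genes, and without LPS+IFNg replicate 3 the count with that stimulus was 8 higher and 0 lower. Their median log2 difference was 0.61 with LPS+IFNg, 0.06 with IL4 and 0.07 with TGFb. With LPS+IFNg the largest differences were those of Tnfaip3, which encodes the ubiquitin-editing enzyme A20 (2484 ± 680 with LPS+IFNg and 288 ± 20.9 in untreated cells, log2 difference 3.07), Ikbke, a kinase related to TBK1 (971 ± 149 and 219.6 ± 16.8, log2 difference 2.13), and Tnip1, a ubiquitin-binding partner of A20 (1425 ± 142 and 579 ± 28.6, log2 difference 1.30), with limma adjusted p of 3.02e-14, 1.90e-12 and 2.12e-11. Leaving out replicate 3 gave log2 differences of 2.86, 2.26 and 1.38 for these genes. Tbk1 was higher with IL4 (0.34, limma adjusted p = 0.00366), and also with LPS+IFNg (1.11, limma adjusted p = 2.92e-10; 1.11 without replicate 3), where it is named after its values were seen.

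Of 11 genes of the NRF2 and KEAP1 axis, to which p62 binds through KEAP1, 6 were higher and 1 lower with LPS+IFNg, 1 higher and 6 lower with IL4, and 1 higher and 7 lower with TGFb. That makes 63.6%, 63.6% and 72.7% of them called, beside 58.9%, 17.2% and 47.5% of all genes, and without LPS+IFNg replicate 3, 8 were higher and 1 lower with that stimulus. Their median log2 difference was 0.40 with LPS+IFNg, -0.41 with IL4 and -0.33 with TGFb. Single genes ranged from -0.79 to 1.86 with LPS+IFNg, from -0.69 to 0.365 with IL4 and from -1.8 to 0.48 with TGFb. Those named below are not always the extremes. Sqstm1, by comparison, was higher with LPS+IFNg, lower with IL4 and higher with TGFb. Gclm, a subunit of the glutathione-synthesis enzyme, averaged 2237 ± 254 with LPS+IFNg and 978 ± 59.4 in untreated cells (log2 difference 1.19, limma adjusted p = 2.21e-11; 1.15 without replicate 3), and it was lower with IL4 (-0.42, limma adjusted p = 0.000222). Gclc, the other subunit of that enzyme, was the 1 gene of the list called lower with LPS+IFNg. Its log2 difference was -0.79, and -0.59 without replicate 3 (limma adjusted p = 2.53e-07). Gsr, glutathione reductase, was lower with IL4 (-0.47, limma adjusted p = 0.000729) and TGFb (-1.01, limma adjusted p = 2.08e-08).

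Of 17 tested receptors and kinases of mitophagy and endoplasmic reticulum turnover, 2 were higher and 3 lower with LPS+IFNg, 7 higher and 1 lower with IL4, and 12 higher and 2 lower with TGFb. The shares called were 29.4%, 47.1% and 82.4%, beside 58.9%, 17.2% and 47.5% of all genes. Without LPS+IFNg replicate 3, 0 were higher and 5 lower with that stimulus. Their median log2 difference was -0.00 with LPS+IFNg, 0.11 with IL4 and 0.22 with TGFb. Bnip3, a mitophagy receptor, averaged 362 ± 28.7 with LPS+IFNg, 566 ± 64.8 with IL4, 915 ± 36.2 with TGFb and 431 ± 24.4 in untreated cells. The log2 differences of Bnip3 were -0.25 with LPS+IFNg (-0.31 without replicate 3), 0.39 with IL4 and 1.08 with TGFb (limma adjusted p = 0.00572, 0.000954 and 8.67e-10). Bnip3l was higher with TGFb (0.53, limma adjusted p = 9.56e-07) and Ncoa4, the ferritin receptor, was lower (-0.69, limma adjusted p = 3.31e-09). Of 25 tested factors of autophagosome formation and fusion, 7 were higher and 8 lower with LPS+IFNg, 8 higher and 0 lower with IL4, and 11 higher and 1 lower with TGFb. Of these factors 60%, 32% and 48% were called, beside 58.9%, 17.2% and 47.5% of all genes, and without LPS+IFNg replicate 3 the counts with that stimulus were 7 and 8. Ykt6, a fusion SNARE, averaged 1672 ± 59.8 with TGFb and 865 ± 47.3 in untreated cells (log2 difference 0.95, limma adjusted p = 3.93e-11), and Vps18, a tethering subunit, averaged 1639.9 ± 181 with LPS+IFNg and 2532 ± 95.1 in untreated cells (-0.63, limma adjusted p = 1.26e-08; -0.54 without replicate 3).

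Of 31 tested genes of mTORC1 and AMPK control, the nutrient switches upstream of ULK1, 5 were higher and 13 lower with LPS+IFNg, 5 higher and 1 lower with IL4, and 6 higher and 7 lower with TGFb. Called shares were 58.1%, 19.4% and 41.9%, beside 58.9%, 17.2% and 47.5% of all genes, and without LPS+IFNg replicate 3, 5 were higher and 14 lower with that stimulus. Their median log2 difference was -0.14 with LPS+IFNg, 0.04 with IL4 and 0.08 with TGFb. Sesn1, a sestrin that restrains mTORC1, averaged 105 ± 7.33 with LPS+IFNg, 732 ± 46.3 with IL4 and 425 ± 25.4 in untreated cells (log2 differences of -2.01 and 0.78, limma adjusted p = 3.16e-14 and 3.92e-07; -2.06 without LPS+IFNg replicate 3). Deptor, an mTOR inhibitor, averaged 114 ± 6.51 with LPS+IFNg, 214 ± 23.9 with TGFb and 409.9 ± 23.8 in untreated cells (-1.84 and -0.94, limma adjusted p = 3.11e-13 and 1.46e-08; -1.79 without LPS+IFNg replicate 3). Another sestrin, Sesn2, went the other way with LPS+IFNg and is named after its values were seen. Its log2 difference was 0.69, and 0.79 without LPS+IFNg replicate 3 (limma adjusted p = 1.96e-06). Of 11 transcription factors known to act on autophagy genes, 4 were higher and 2 lower with LPS+IFNg, 3 higher and 0 lower with IL4, and 4 higher and 4 lower with TGFb. This is 54.5%, 27.3% and 72.7% of the 11, beside 58.9%, 17.2% and 47.5% of all genes, and without LPS+IFNg replicate 3, 5 were higher and 2 lower with that stimulus. The stress factors Ddit3 and Atf4 were higher with LPS+IFNg (2.35 and 0.90, or 2.06 and 0.97 without replicate 3; limma adjusted p = 2.29e-11 and 6.35e-11) and lower with TGFb (-0.99 and -0.85; limma adjusted p = 6.09e-06 and 4.70e-10). Tfec, a relative of the lysosomal-gene regulator TFEB, averaged 208 ± 5.49 with IL4 and 116 ± 16.9 in untreated cells (0.85, limma adjusted p = 5.37e-05).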

How the data were processed

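Total RNA of 15 ESdM libraries was made into TruSeq RNA libraries, per the labels' protocols. The deposited values are a normalized signal per gene and library: read counts had been scaled by the authors with a single factor for each library and floored at 1. Both steps are inferred from the values. Of those above the floor, with the highest counts left out, 100% were whole multiples of 1 read within 0.05 reads. Per the submitters' processing notes, TopHat2 2.0.3, Partek 6.6, R 3.0.2, DESeq2 and the build mm10 were used. Which annotation and counting rule were used, and whether counting was by strand, is not given in the sources used here.

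Groups came from the stimulation in the labels, and replicate numbers only name libraries. All 15 columns were used and 0 were left out. Because the values are normalized, limma 3.58.1 in R 4.3.3 was fitted to log2(value + 1) with the empirical Bayes trend, in 1 fit over 15 libraries with 6 contrasts. The filter kept 11138 genes that reached 10 in at least 3 libraries, and a gene was called where its p, adjusted over them by Benjamini-Hochberg, was below 0.05. Differences on this scale understate the change of low genes. The script was run on simulated data with 200 genes changed, far fewer than were called in any comparison here. The simulated spread came from the untreated libraries alone, and the outcome of that run is not given here. Errors printed with ± are SDs over 3 stimulated or 6 untreated libraries.

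The 37 genes, the lists and the rules were chosen with earlier results of these data known. Values in every stimulated library, with the lowest, median and highest untreated value, are given for the receptors, the ATG8 genes and each gene called against untreated cells with a log2 difference of at least 0.58 in size, and at most 3 genes per further list and stimulus are named. The named genes of a further list are not always those with its largest differences. Positions are from GENCODE M21 (GRCm38, the build named mm10), where all 37 genes are protein coding, and promoter sequences are from RefSeq (GRCm38.p6). Alternatives were other pseudocounts, filters, scalings and fits, and leaving libraries out.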

Additional observations from a re-analysis of the deposited data

How the results depend on the processing

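The number of autophagy genes called changed by no more than 1.5 times in all 6 comparisons under every alternative run (pseudocounts of 0.5 and 5, no filter, a minimum of 50, the same-total and quantile scalings, limma without the trend, fits over the groups compared alone, and libraries left out), and no difference of a single gene that was called turned its direction. The lowest count against the reported one was for TGFb without the 3 libraries of fewest reads, untreated replicates 4 and 1 and TGFb replicate 2, with 12 genes higher and 2 lower where 17 and 4 were reported. Of all genes, 37.7% were called with TGFb in that fit, where 47.5% were called with all libraries. Leaving out each library in turn gave 19 to 22 called genes for LPS+IFNg, 6 to 8 for IL4 and 16 to 21 for TGFb against untreated, and 16 to 20 for LPS+IFNg against IL4, 21 to 23 for LPS+IFNg against TGFb and 11 to 15 for IL4 against TGFb. The shares of all genes called in these fits were 54.7% to 59.3%, 10.2% to 16.8% and 40% to 46.5% against untreated. Between stimuli, in the same order, they were 52.3% to 56.2%, 57.4% to 60.9% and 33.6% to 34.6%. Against untreated, the calls lost under at least 1 of 18 alternatives were those of Ambra1, Atg101, Atg4a, Atg4c and Pik3r4 with LPS+IFNg, of Nbr1 and Uvrag with IL4, and of Atg101, Atg4a, Atg9a, Becn1, Pik3r4, Tax1bp1, Ulk1, Ulk2 and Uvrag with TGFb. Between stimuli, 14 of 18, 18 of 25 and 10 of 15 calls held under all 15 alternatives. Over all comparisons, 128 single-gene values lost their call, 59 gained one and 3470 kept their side of the threshold. The planned edgeR and DESeq2 alternatives were not run. An automatic check of the units took the floor of 1 for a step and did not accept every library as whole reads. Recovered reads were used only to describe depth and the agreement of replicates. No paired analysis was possible because the groups share no replicate number in the labels. Depth limits Wipi1 most, with 4 reads in its lowest library.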
